A study of Mus musculus with 6 samples.

Results

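The bile acid synthesis enzymes and their nuclear receptors were examined in hepatic tissue of ARSB-null and control mice. They are 10 genes, Cyp7a1, Cyp7b1, Cyp8b1, Cyp27a1, Cyp39a1, Hsd3b7, Baat, Slc27a5, Nr0b2 and Nr1h4, of the 19938 genes that the array annotation names on a probe set with a single symbol. Each of the 10 was read by 1 such probe set, so no choice among probe sets was needed. The 3 ARSB-null mice were homozygous for loss of ARSB (arylsulfatase B), a lysosomal sulfatase that acts on sulfated glycosaminoglycans, and were set against 3 control C57BL/6J mice. All 6 were untreated males of 12 weeks on the C57BL/6J background, numbered 4, 5 and 6 in each group, with 1 array per liver. The ARSB-null mice came from a colony bred from purchased heterozygotes, and the controls are not described as littermates, so genotype and colony cannot be told apart here. Values are log2 signals as the authors deposited them, so that a difference of 1 is a factor of 2, and differences are ARSB-null minus control.

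The liver makes bile acids from cholesterol by several routes. In the classical route Cyp7a1 carries out the first and rate-limiting hydroxylation, and Cyp8b1 adds the hydroxyl group that makes cholic acid. In the acidic route Cyp27a1 oxidizes the side chain of cholesterol in mitochondria and Cyp7b1 then hydroxylates the ring of the resulting oxysterols, while Cyp39a1 acts on an oxysterol that comes largely from brain. Hsd3b7 modifies the ring in all routes, and Slc27a5 and Baat activate bile acids and join them to taurine or glycine. Nr1h4 encodes FXR, the receptor for bile acids, which induces Nr0b2 (SHP), a repressor of Cyp7a1 and Cyp8b1. In mice Cyp7b1 is also known for higher expression in male than in female liver.

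Cyp7b1 was the member with the widest separation of the groups. None of the 10 genes was past an adjusted p of 0.05 in either direction, by limma with Benjamini-Hochberg adjustment over all 35556 probe sets, where 0.00562% of the probe sets were higher and 0.0141% lower. At an unadjusted p under 0.05, 0 members were higher and 1, Cyp7b1, was lower, against 2.75% of all probe sets higher and 3.19% lower. The groups did not overlap for 3 members, Cyp27a1 on the higher side and Cyp7b1 and Nr1h4 on the lower side, against 5.14% of all probe sets higher and 6.78% lower without overlap. The mean was higher in ARSB-null liver for 6 members and lower for 4, with a median log2 difference of 0.080, against 0.0015 over all probe sets. With 3 mice against 3, the smallest two-sided p of the exact permutation test is 0.1.

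The arrays were checked before these genes were read. Arsb, on the brighter of its 2 probe sets, was 6.23-fold lower in ARSB-null liver (limma, log2 difference -2.64 and adjusted p = 0.000639), although the position of the probe sets relative to the lesion is not known. All 15 measured hepatocyte markers, among them the genes of plasma proteins, lay between 12.8 and 14.3 in mean log2 signal and all 10 bile acid genes between 9.49 and 12.9, above the array medians of 6.50 to 6.60, although the levels of different probe sets cannot be compared. There are no detection calls for these arrays. In whole liver, fewer cells of a type and less RNA per cell cannot be told apart.

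Cyp7b1, the oxysterol hydroxylase of the acidic route, had log2 signals of 10.79, 10.96 and 10.36 in the ARSB-null livers numbered 4, 5 and 6, against 12.18, 11.66 and 11.60 in the control livers of the same numbers. Every ARSB-null liver lay below every control liver, with the lowest signal in ARSB-null mouse 6 and the highest in control mouse 4. The means were 10.71 ± 0.31 in ARSB-null and 11.81 ± 0.32 in control liver (SD, n = 3 each). This was a log2 difference of -1.11 (standard error 0.21), or a 2.15-fold lower signal in ARSB-null liver with a 95% interval of 1.52 to 3.06. The difference exceeded the spread within either group, but it did not pass the adjusted threshold (p = 0.00130 unadjusted and 0.356 adjusted, limma; exact permutation test p = 0.1, the smallest possible). Among the 19938 genes Cyp7b1 ranked 89 by p, and 23 genes, itself included, had a log2 difference this low or lower. The adjusted p reached 0.0636 when only probe sets with 1 gene symbol were tested, and ranged from there to 0.827 over the alternatives, with log2 differences of -1.24 to -0.92. The arrays numbered 4 differed most from the others of their group, with a mean SD of the log2 differences of 0.375 in ARSB-null and 0.437 in control liver, against 0.335 to 0.359 for the other 4 arrays. Without both, the log2 difference of Cyp7b1 was -0.97 (limma, adjusted p = 0.461).

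**Figure D1:**
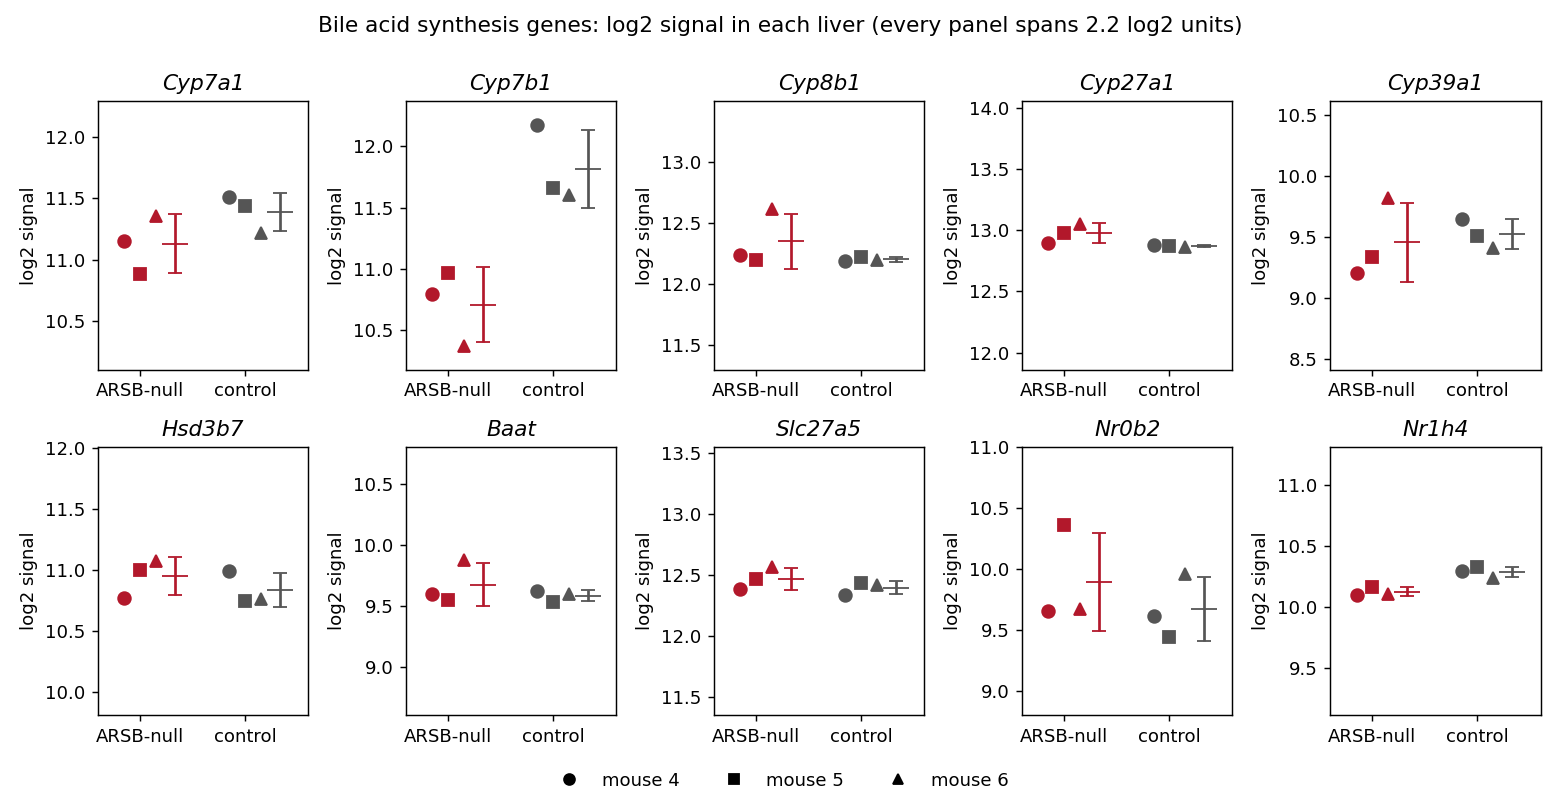
Log2 signal (vertical axes) of the 10 bile acid synthesis genes in each liver, ARSB-null (red) left of control (grey), with a symbol for each mouse number; horizontal bars with error bars are means and SD (n = 3). The Cyp7b1 signals of ARSB-null livers, 10.36 to 10.96, lie below those of control livers, 11.60 to 12.18, whereas in 7 of the other panels the groups overlap.

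The other enzyme of the acidic route went the other way. Cyp27a1, the mitochondrial sterol hydroxylase, had 12.90, 12.98 and 13.05 in ARSB-null livers, against 12.88, 12.87 and 12.86 in controls. The controls lay within a very narrow span, and all 3 ARSB-null livers were just above it. The log2 difference was 0.11 (95% interval -0.11 to 0.33), a fold of 1.08 with an interval of 0.924 to 1.26 (adjusted p = 0.981, limma). The separation of these groups thus rested on a small difference, and the interval extended below 0.

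Cyp39a1, the oxysterol hydroxylase of the minor route, varied more between mice than between groups. Its log2 signals were 9.21, 9.34 and 9.81 in ARSB-null livers, against 9.65, 9.51 and 9.41 in controls. ARSB-null livers held both the lowest and the highest value. The log2 difference was -0.07 (95% interval -0.48 to 0.34, adjusted p = 0.993, limma), and its sign changed in 3 alternatives, such as 0.05 without ARSB-null mouse 4, whereas it was -0.25 without ARSB-null mouse 6.

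In the classical route, Cyp7a1 had 11.16, 10.88 and 11.36 in ARSB-null livers, against 11.51, 11.43 and 11.22 in controls. The groups overlapped, since ARSB-null mouse 6 lay above control mouse 6. The means were 11.13 ± 0.24 in ARSB-null and 11.39 ± 0.15 in control liver (SD, n = 3 each), a log2 difference of -0.26 (adjusted p = 0.943, limma; exact permutation test p = 0.2). The 95% interval, in fold, ran from 0.651 to 1.07, so a signal up to 1.54-fold lower in ARSB-null liver was not excluded by these arrays. Cyp8b1, which decides the share of cholic acid, had 12.24, 12.20 and 12.61 in ARSB-null livers, against 12.18, 12.22 and 12.19 in controls. Of these 6 values 5 lay close together and ARSB-null mouse 6 stood above them. The log2 difference was 0.15 (95% interval -0.17 to 0.46, adjusted p = 0.984, limma), and 0.02 without that mouse.

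The steps shared by all routes differed little. Hsd3b7, the ring dehydrogenase, had 10.77, 11.00 and 11.07 in ARSB-null livers, against 10.99, 10.75 and 10.76 in controls, with overlapping groups and a log2 difference of 0.11 (adjusted p = 0.989, limma). Slc27a5, the bile acid coenzyme A ligase, had 12.38, 12.46 and 12.56 in ARSB-null livers, against 12.34, 12.43 and 12.42 in controls, a log2 difference of 0.07 (95% interval -0.16 to 0.31). Baat, the amino acid transferase of the last step, had 9.60, 9.55 and 9.88 in ARSB-null livers, against 9.62, 9.54 and 9.60 in controls. For Baat the log2 difference of 0.09 came from ARSB-null mouse 6, and it was -0.01 without that mouse.

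**Figure D2:**
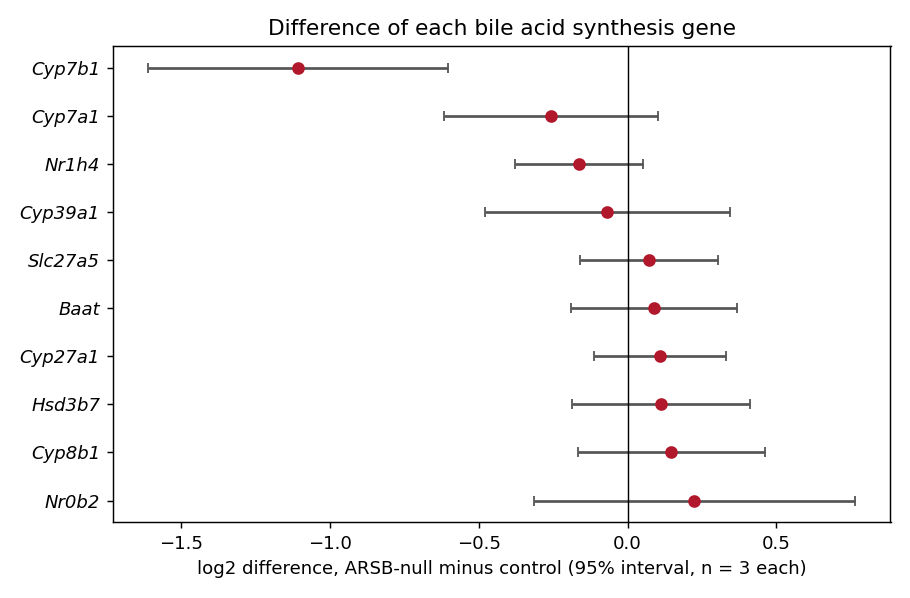
Difference of log2 signal, ARSB-null minus control (horizontal axis), for each of the 10 genes (vertical axis), as points with 95% intervals from limma (n = 3 each). The interval of Cyp7b1, -1.61 to -0.60, lies below 0, and those of the other 9 genes include 0 and lie between -0.62 and 0.76.

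The intervals limit how far the other genes could have moved in these livers. For the 9 members other than Cyp7b1 the log2 differences ran from -0.26 (Cyp7a1) to 0.22 (Nr0b2). Over these 9, the lowest end of any 95% interval corresponded to a 1.54-fold lower signal in ARSB-null liver (Cyp7a1), and the highest end to a 1.70-fold higher signal (Nr0b2). A p above the threshold does not show that these genes were alike in both groups. The intervals hold for each gene alone, and are not adjusted for the number of genes.

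Of the nuclear receptors, Nr1h4 (FXR) had 10.10, 10.17 and 10.11 in ARSB-null livers, against 10.29, 10.33 and 10.24 in controls. All ARSB-null livers lay below all control livers, with little spread in either group, 0.037 in ARSB-null and 0.044 in control liver (SD, n = 3 each). The log2 difference was -0.16 (95% interval -0.38 to 0.05), a 1.12-fold lower signal (p = 0.117 unadjusted and 0.923 adjusted, limma; exact permutation test p = 0.1). By the analysis of variance that the methods name, which takes the spread from this gene alone, Nr1h4 was past the unadjusted threshold of 0.05 and not past the adjusted one. Nr0b2 (SHP), its target, varied most among the ARSB-null livers, with 9.65, 10.36 and 9.67 there and 9.61, 9.44 and 9.96 in the control livers. The groups overlapped, and the log2 difference of 0.22 (95% interval -0.32 to 0.76) was -0.01 without ARSB-null mouse 5.

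Across single mice, the liver with the most Nr0b2 signal in each group had the least Cyp7a1 signal of that group. This was mouse 5 in the ARSB-null group, with 10.36 for Nr0b2 and 10.88 for Cyp7a1, and mouse 6 in the control group, with 9.96 for Nr0b2 and 11.22 for Cyp7a1. For Cyp8b1 the same held in the ARSB-null group and not in the control group. With 3 livers a group this is a description of these mice.

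For most enzymes the highest ARSB-null signal came from the same liver. ARSB-null mouse 6 had the highest signal of its group for 7 of 8 enzymes and the highest of all 6 livers for 6 of them. The exceptions were Cyp7a1, where control mice 4 and 5 were higher, and Cyp7b1, where ARSB-null mouse 6 was the lowest of all. Over the 4005 genes with a mean log2 signal above 9, a limit that all 10 members exceed, this mouse was the highest of the ARSB-null livers for 37.9%. Among controls mouse 4 was highest for 6 of 8 enzymes, including Cyp7b1 and Cyp7a1. No share over other genes was taken for the controls, and the array of control mouse 4 differed most from its group, so this count is only a description. The SD was larger in ARSB-null than in control liver for 8 of 10 members, against 53.8% of those 4005 genes.

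**Figure D3:**
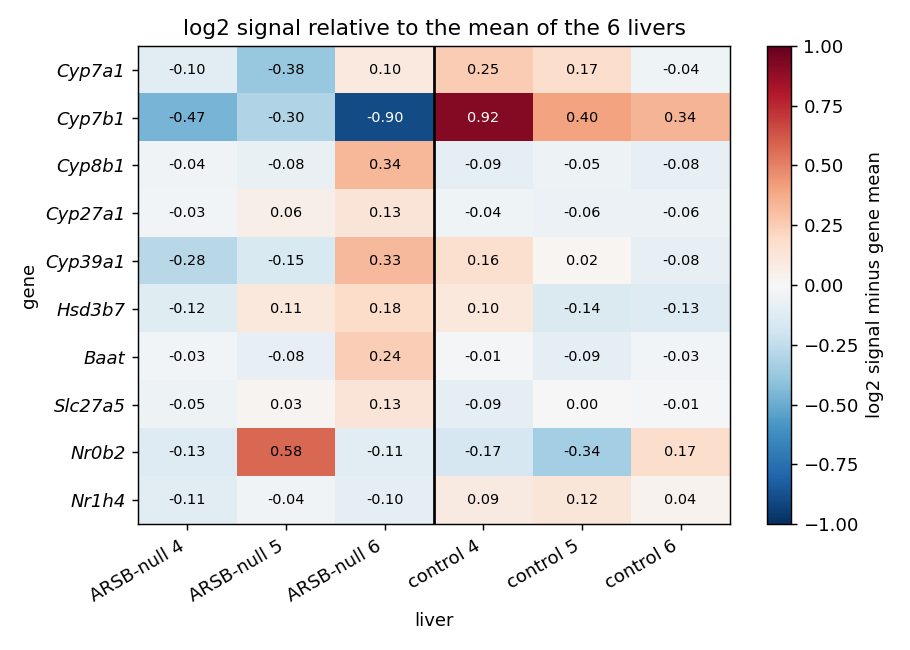
Log2 signal of each gene (rows) in each liver (columns, ARSB-null left of control) minus the mean of that gene over the 6 livers, in colour and as numbers. ARSB-null mouse 6 is above the gene mean for 7 of 8 enzymes and furthest below it for Cyp7b1, and ARSB-null mouse 5 holds the highest Nr0b2 signal.

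The pattern of Cyp7b1 over the 6 arrays was set against that of every other gene by the root mean square difference of log2 signals centred on each gene's mean. The closest were Ccr9, a chemokine receptor (0.167), Ugt2b37, a glucuronosyltransferase (0.179), and Cxcl13, a chemokine of B cell follicles (0.205). Ugt2b37 averaged 7.82 in ARSB-null and 8.77 in control liver, and Cxcl13 averaged 7.03 in ARSB-null and 8.21 in control liver. Ccr9 lay below the array medians, at 4.57 in ARSB-null and 5.41 in control liver. None of the 3 was past the adjusted threshold (adjusted p = 0.195 to 0.378 from limma).

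The sequence before the start of transcription was read from RefSeq for the members with an entry. Of the 10 genes 5 matched (Cyp8b1, Cyp27a1, Hsd3b7, Nr0b2 and Nr1h4); Cyp7a1, Cyp7b1, Cyp39a1, Baat and Slc27a5 did not. The 250 bases before the start were searched on both strands for AAGGTCA (the core bound by LRH-1, through which SHP represses its targets), for the inverted repeat of AGGTCA bound by FXR, its copies 1 base apart, and for CACGTG (an E-box, bound by clock factors), TTATGNAA (a D-box) and TATAAA (bound by the basal factor TBP). These letters occur in 4.08%, 0.00609%, 6.02%, 3.07% and 12.4% of all 32851 promoters of the table. The 3 promoters with a match are shown 5′ to 3′, with the matches in capitals. They belong to Cyp8b1, the cholic acid enzyme, to Cyp27a1, whose groups did not overlap, and to the repressor Nr0b2.
Cyp8b1 (GRCm38.p6, chr9:121916306-121916555, minus strand): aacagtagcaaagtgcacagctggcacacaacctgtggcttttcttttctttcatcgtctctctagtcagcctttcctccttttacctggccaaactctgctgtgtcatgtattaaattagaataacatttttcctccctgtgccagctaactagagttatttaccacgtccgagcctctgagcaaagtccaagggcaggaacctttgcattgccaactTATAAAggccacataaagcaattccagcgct
Cyp27a1 (GRCm38.p6, chr1:74713285-74713534, plus strand): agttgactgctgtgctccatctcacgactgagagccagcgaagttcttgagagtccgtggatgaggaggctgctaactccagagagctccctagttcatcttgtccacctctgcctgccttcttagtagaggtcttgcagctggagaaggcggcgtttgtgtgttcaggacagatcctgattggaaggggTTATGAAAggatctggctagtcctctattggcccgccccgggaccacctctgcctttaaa
Nr0b2 (GRCm38.p6, chr4:133553126-133553375, plus strand): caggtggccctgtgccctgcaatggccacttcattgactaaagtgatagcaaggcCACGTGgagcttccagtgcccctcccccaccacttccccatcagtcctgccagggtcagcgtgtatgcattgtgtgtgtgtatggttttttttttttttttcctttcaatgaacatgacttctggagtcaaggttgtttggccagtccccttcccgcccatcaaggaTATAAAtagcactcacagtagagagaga
Cyp8b1 and Nr0b2 each hold TATAAA, its first base 31 and 28 bases before the start, and Nr0b2 also holds CACGTG 195 bases before it. Cyp27a1 holds TTATGNAA 60 bases before its start. The promoters of Hsd3b7 and Nr1h4 held none of the 5 motifs in this window. The groups overlapped for Cyp8b1 and Nr0b2, and did not for Cyp27a1, and nothing was measured on the promoters themselves.

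The rest of the pathway was read from lists of related genes. Of 19 measured other bile acid enzymes, among them those of side-chain shortening, muricholic acid synthesis and electron supply, 0 passed the adjusted threshold and 1 was higher and 0 lower at an unadjusted p under 0.05, with a median log2 difference of 0.0027. The higher one was Hsd17b6, a hydroxysteroid dehydrogenase (0.36, adjusted p = 0.811 from limma). Next by p were Abcd3, which imports side-chain intermediates into peroxisomes (-0.19), Acnat2, a relative of Baat (-0.46), and Cyp46a1, the cholesterol hydroxylase of brain (-0.18), with an adjusted p of 0.952 to 0.985. With single arrays omitted, 1 of these enzymes was higher at the unadjusted threshold without control mouse 6, and 0 were without any other array. Without ARSB-null mouse 6, 1 was lower.

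Of 18 transporters of bile acids and bile lipids, 0 passed the adjusted threshold, and 1 was higher and 2 lower at the unadjusted one, with a median log2 difference of 0.00025. Slco1a4, a sinusoidal uptake transporter, averaged 10.51 ± 0.17 in ARSB-null and 10.06 ± 0.06 in control liver (SD, n = 3 each), which differ by 0.45 (limma, adjusted p = 0.568). Slc10a2, the sodium-dependent bile acid transporter of ileum and bile ducts, averaged 7.34 ± 0.17 in ARSB-null and 8.16 ± 0.41 in control liver (SD, n = 3 each), which differ by -0.82 (limma, adjusted p = 0.574). Without control mouse 4, 5 transporters were lower at the unadjusted threshold, and 1 was without ARSB-null mouse 4, ARSB-null mouse 6, control mouse 5 or control mouse 6. Abcg2, an efflux pump, had -0.45 and Slc51b, a subunit of the basolateral bile acid exporter, had -0.27. Sox9, which is on the cholangiocyte and the periportal list, also had less signal in ARSB-null liver (log2 difference -0.35, unadjusted p = 0.00970). Of the 9 measured cholangiocyte markers 6 had a lower mean, 1 of them at an unadjusted p under 0.05, and their summed signal, on the log2 scale, was 10.66 to 10.70 in ARSB-null and 10.81 to 10.84 in control livers, without overlap. After Sox9, the smallest p were those of Anxa4 (-0.16), Sctr (0.17) and Cldn4 (-0.12). Anxa4 had the brightest signal of the 9 markers, and so the largest part in the sum. Krt19 (0.02), Epcam (0.08) and Cftr (-0.04) differed little, and Sctr, Epcam and Cftr lay below the array medians in every liver. The part of cholangiocytes in the Slc10a2 value was not tested.

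Of 27 measured regulators, 0 passed the adjusted threshold and 1 was higher and 0 lower at the unadjusted one, with a median log2 difference of 0.056. Nr1i3 (CAR), a receptor for drugs and bile acids, averaged 10.24 ± 0.46 in ARSB-null and 9.68 ± 0.14 in control liver (SD, n = 3 each; log2 difference 0.56, adjusted p = 0.827 from limma). Next were the coactivator Ppargc1a (0.45), the coactivator Ncoa1 (-0.18) and the pioneer factor Foxa1 (-0.27). The Nr1i3 signals of ARSB-null livers were 9.98, 9.97 and 10.77, the last in mouse 6. Without ARSB-null mouse 6, control mouse 4 or control mouse 5, 0 regulators were higher at the unadjusted threshold. Without ARSB-null mouse 4, 2 were higher and 1 was lower, and without ARSB-null mouse 5, 1 was higher and 1 lower. Of 14 measured genes of sterol supply, 1 was higher and 0 lower at the unadjusted threshold, namely Npc1, which exports cholesterol from lysosomes (0.27, adjusted p = 0.835 from limma), followed by Abca1 (-0.24), Insig1 (-0.20) and Insig2 (-0.14). With single arrays omitted, 1 sterol supply gene was higher at that threshold without control mouse 4, and 0 were without any other array.

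Cyp7a1 is known to follow the clock, and the hour of sampling is not given in the sources used here. Of 18 measured circadian genes 0 passed the adjusted threshold, 1 was higher and 3 lower at the unadjusted one, and the median log2 difference was -0.17. The 4 were Bhlhe41 (0.75), Nfil3 (-0.41), Cry1 (-0.39) and Rorb (-0.32), with an adjusted p of 0.718 to 0.827, and Bhlhe41 and Rorb lay below the array medians in both groups. Without ARSB-null mouse 4, control mouse 5 or control mouse 6, 1 circadian gene was lower at that threshold, and without ARSB-null mouse 5, 3 were higher. The part of the hour in the Cyp7a1 and Cyp7b1 values was not tested.

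Markers of hepatocyte position and of other liver cells were read beside these genes. Of 13 pericentral markers 6 were higher and 0 lower at the unadjusted threshold, against 2.75% and 3.19% of all probe sets. The median log2 difference of the 13 was 0.26, and the mean was higher for 12 and lower for 1. Those with the smallest p were Lhpp (0.76), Oat (0.51), Slc1a2 (0.40) and Axin2 (0.41). Glul (0.22), Tbx3 (0.13), Lgr5 (0.06) and Rhbg (-0.07) were not past that threshold. The summed signal of the 13, on the log2 scale, was 15.61 to 15.77 in ARSB-null and 15.40 to 15.53 in control livers. Of 11 measured periportal markers 0 were higher and 3 lower, Cdh1 (-0.63), Sox9 (-0.35) and Cyp2f2 (-0.30). The median log2 difference of the 11 was -0.087, and the mean was higher for 4 and lower for 7. Pigr, next by p, had a higher mean (0.21). Its groups were separate, as were those of Pck1 (0.21), the other of 2 periportal markers without overlap on the higher side. On the lower side 4 had no overlap, against 5.14% of all probe sets higher and 6.78% lower without overlap. Among the 13 pericentral markers 7 had no overlap on the higher side and 0 on the lower. The summed signal of the 11 periportal markers, on the log2 scale, was 15.57 to 15.76 in ARSB-null and 15.69 to 15.72 in control livers. Without ARSB-null mouse 5, ARSB-null mouse 6 or control mouse 6, 3 pericentral markers were higher at the unadjusted threshold. None of the pericentral or periportal markers passed the adjusted threshold (lowest adjusted p = 0.199 for Lhpp and 0.239 for Cdh1, limma). Of 15 hepatocyte markers 0 were past the unadjusted threshold in either direction, with a median of 0.073. The part of hepatocyte position in the Cyp7b1 value was not tested.

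Of 13 Kupffer cell and macrophage markers 4 were lower and 2 higher at the unadjusted threshold, against 3.19% and 2.75% of all probe sets. Among the lower were Folr2 (-0.75) and Cd163 (-0.77), and the higher were Cd68 (0.53) and C1qa (0.39). Unlike C1qa, C1qb (-0.13) and C1qc (-0.14) had a lower mean. The mean was lower for 10 of the 13 and higher for 3. Without ARSB-null mouse 4, control mouse 4 or control mouse 5, 2 of these markers were lower at that threshold, and without control mouse 6, 5 were. Their summed signal, on the log2 scale, was 13.14 to 13.22 in ARSB-null and 13.08 to 13.46 in control livers. Of 10 endothelial markers 1 was higher (Stab1, 0.49) and 1 lower (Lyve1, -0.31), and of 10 stellate cell markers 1 was higher (Ecm1, 0.52). None of these markers passed the adjusted threshold.

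**Figure D4:**
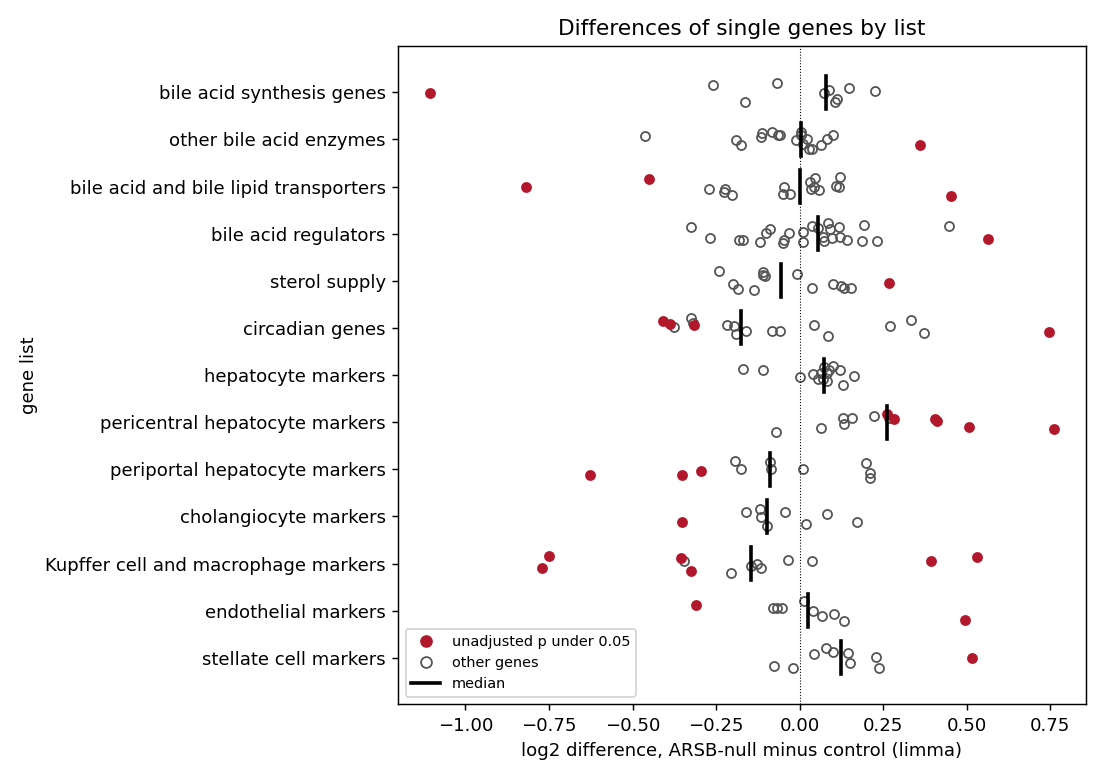
Difference of log2 signal, ARSB-null minus control (horizontal axis), of each measured gene of the bile acid, sterol, circadian and cell marker lists (vertical axis), with genes at an unadjusted p under 0.05 from limma filled in red and the median of each list as a black bar. Among the genes plotted Cyp7b1, at -1.11, lies furthest left, and the medians of these lists run from -0.17 (circadian genes) to 0.26 (pericentral markers).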

How the data were processed

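Hepatic RNA of 3 ARSB-null and 3 control mice was labeled and hybridized by the authors to an Affymetrix Mouse Gene ST array. The authors normalized the signals by quantiles and summarized each probe set to 1 log2 value per array, which was used as deposited (the submitters' notes name RMA and Partek; versions not given in the sources used here). Of 35556 probe sets, 21789 carried 1 gene symbol in GEO's platform annotation, checked through the gene identifier against RefSeq of GRCm38.p6 (0 symbols changed); genes were named from these alone. The paper's methods name a later version of the Mouse Gene ST array than the one whose annotation holds these row identifiers. The number of arrays limits the precision.

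Groups were compared by limma 3.58.1 in R 4.3.3 (lmFit, eBayes, two-sided, Benjamini-Hochberg adjustment over all probe sets, adjusted p under 0.05), tested on simulated data. Lists were described by counts and medians, from the brightest probe set of each gene. Named genes were all 10 members, up to 4 genes with the smallest p of each list, and the 3 genes closest in pattern to the member with the widest range and to that with the smallest p, both Cyp7b1. The members and lists were chosen with earlier results of these data known. Deviations from the group means correlated at 0.396, 0.159 and 0.193 between mice numbered 4, 5 and 6, each above the 0.1 taken to pair them. However, ARSB-null mouse 6 correlated more with control mouse 5, at 0.220. Deviations cancel out within a group, so these correlations are not independent of each other and do not settle the pairing. No label explains the numbers. A fit that blocks on the number, other priors, scalings, filters, array weights, the methods' analysis of variance and omitted arrays were alternatives. The counts over lists without single arrays were added after the data were seen.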

Additional observations from a re-analysis of the deposited data

How the results depend on the processing

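No member passed the adjusted threshold under any alternative. Cyp7b1, Cyp7a1 and Nr1h4 stayed lower and Cyp8b1, Cyp27a1, Hsd3b7 and Slc27a5 higher in ARSB-null liver under all of them; Cyp39a1, Baat and Nr0b2 changed sign in 3, 1 and 1 of 16 alternatives. At the unadjusted threshold of the methods' analysis of variance 2 members, Cyp7b1 and Nr1h4, were lower and 0 higher. The replicate block, for paired mice, changed no call among the members (adjusted p of Cyp7b1 0.348, limma). The counts over all probe sets, 2 higher and 5 lower, moved more: 1 and 1 by the analysis of variance with adjusted p, 941 and 1392 by its unadjusted p, 27 and 33 among probe sets with 1 gene symbol, 14 and 14 with array weights, 1 and 3 with the replicate block, and 1 and 0 without both arrays numbered 4. With array medians centred 1 was higher, and among the brighter probe sets 5 were. With any single array omitted, 1 was higher and between 3 and 6 were lower. The cause was not tested. The mean over several probe sets of a gene was not run, since each member has 1. Without detection calls, signal over background is not known.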

Other observations

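Cyp7b1 is known for male-predominant expression in mouse liver, and other genes known for a sex difference were therefore read; these lists were drawn up after the value of Cyp7b1 and several of theirs had been seen, so their counts are a description of these livers and support nothing. Of 14 male-predominant genes, 14 had a lower mean in ARSB-null liver, 7 of them at an unadjusted p under 0.05 against 3.19% of all probe sets, and 0 passed the adjusted threshold (lowest adjusted p = 0.365, limma). Among them Cyp4a12a, a fatty acid hydroxylase, averaged 12.02 ± 0.31 in ARSB-null and 12.84 ± 0.16 in control liver, and Selenbp2 averaged 10.87 ± 0.30 in ARSB-null and 11.57 ± 0.12 in control liver (SD, n = 3 each). Moxd1 had a log2 difference of -1.61 and C4a one of -0.97. The Moxd1 signals of the ARSB-null livers, 5.31 to 5.37, lay below the array medians, as did the 6.21 of control mouse 6. ARSB-null mouse 6 was the lowest of the ARSB-null livers for 12 of the 14 genes. No share over other genes was taken for the lowest liver, so this count is only a description. Without ARSB-null mouse 6 the mean was lower for 12 of the genes, at an unadjusted p under 0.05 for 5 of them. The median log2 difference was then -0.37, against -0.62 with all arrays. Without control mouse 5 or control mouse 6, 13 had a lower mean. Hsd3b5 had 12.56, 12.65 and 11.19 in ARSB-null livers, and its log2 difference of -0.13 (95% interval -1.04 to 0.79) was 0.35 without ARSB-null mouse 6. Slco1a1, which also carries bile acids, had -0.05, and 0.14 without that mouse. Cyp2d9 had -0.17. Cyp4a12a and Cyp4a12b are near-identical, and their probe sets can share signal.

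Of 6 female-predominant genes, 5 had a higher mean in ARSB-null liver, and 1 of them, Cyp2b9, was higher at an unadjusted p under 0.05 (2.75% of all probe sets), with a mean of 10.29 ± 1.75 in ARSB-null and 6.60 ± 0.26 in control liver (SD, n = 3 each; adjusted p = 0.400 from limma). Cyp2b9 had 8.40, 10.59 and 11.87 in ARSB-null livers, and its log2 difference of 3.69 was 2.90 without ARSB-null mouse 6, the highest. With an array omitted, 3 to 6 of the genes had a higher mean. The others had log2 differences of -0.01 (Hao2) to 0.34 (Acot3), and Cux2, a factor of female liver, had 0.04. Hao2, A1bg (0.01) and Cyp3a16 (0.04) lay below the array medians in every liver, so the direction of their means says little.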
